A study of Sus scrofa with 8 samples.

Results

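Acetylation of histone H3 at lysine 27 (H3K27ac) marks promoters and enhancers that are in use. Enhancers often lie between genes, far from the promoter they act on, and they differ between cell types more than promoters do. In epiblast stem cells such distal elements are known to surround the genes of the pluripotency factors. The stretches of pig chromosomes described here carried H3K27ac in epiblast stem cells, had no called H3K27ac in embryonic fibroblasts, and lay away from every protein-coding gene.

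The epiblast cells were pig pre-gastrulation epiblast stem cells (pgEpiSC), lines labelled as coming from the epiblast of embryonic day 10, and the comparison cells were porcine embryonic fibroblasts (pEF) of embryonic day 30, both with no treatment or transgene named in the labels. Each cell type had 2 H3K27ac libraries, numbered 1 and 4 for pgEpiSC and 1 and 2 for pEF, each with its own input, which is chromatin sequenced without the antibody. Nothing in the labels tells separate lines, animals or cultures apart within a type, so any p-value measures only the spread between these libraries. The deposited lists give islands, the stretches where ChIP reads cluster, with the ChIP reads, the input reads and a fold over input for each.

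Overlapping islands of the 4 libraries were merged on chromosomes 1 to 18, which gave 98547 regions. A region was kept if it was under 20 kb wide, held an island from both pgEpiSC libraries and from neither pEF library, and overlapped no protein-coding gene body and no window of 2 kb around a gene end. The rule kept 8992 regions, or 9.12% of all merged regions, 42.7% of the 21044 epiblast-only regions under 20 kb, and 23.8% of the 37749 regions of that width between genes. They are called the epiblast-only intergenic regions below, and they covered 61.5 Mb. The same rule with the cell types exchanged gave 8210 fibroblast-only intergenic regions. The regions were chosen by the presence of islands in pgEpiSC and their absence in pEF, so the difference between the cell types at them is a description and was not tested.

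The islands on chromosomes 1 to 18 held 28.6 and 36.6 M ChIP reads in pgEpiSC 1 and 4, and 41.3 and 45.1 M in pEF 1 and 2. The smallest island held 41 and 45 reads in the pgEpiSC libraries and 32 and 38 in the pEF libraries. A missing pEF island therefore says that no island was called there, since the lists hold reads inside islands only. The labels were checked at gene ends. Of 10 epiblast marker genes, 10 and 9 had an island at an end in pgEpiSC 1 and 4, against 4 and 4 in pEF 1 and 2. In both pEF libraries NANOG, LIN28A, SALL4, PRDM14, OTX2 and UTF1 had none. NANOG was also the marker without an end island in pgEpiSC 4. Of 8 fibroblast markers, 4 and 3 had one in the pgEpiSC libraries, against 8 and 8 in the pEF libraries. Of 4 endothelial markers, 2 and 3 had one in the pgEpiSC libraries (PECAM1 and CDH5 in both, TEK in pgEpiSC 4), against 0 and 0 in the pEF libraries, and of 4 blood markers, 1 and 2 against 2 and 2. The part of these other cell types in the results was not tested.

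The epiblast-only intergenic regions were wide and modestly enriched. Their median width was 6.0 kb, with quartiles of 4.40 and 8.40 kb and a range of 0.200 to 19.8 kb. In most of them a library had a single island, in 8613 regions in pgEpiSC 1 and 8345 in pgEpiSC 4. The median region held 280 ChIP reads in pgEpiSC 1 and 327 in pgEpiSC 4. The islands of both libraries covered largely the same bases, since in 8814 regions (98.0%) at least 50% of the smaller cover was shared.

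The fold over input, the authors' ratio of ChIP to scaled input reads, had a median of 1.83 in pgEpiSC 1 (quartiles 1.57 and 2.20) and 1.75 in pgEpiSC 4 (quartiles 1.5 and 2.08). Where a library had several islands in a region, the highest fold was used. The mean of both library medians was 1.79 ± 0.0572 (SD, n = 2 libraries). A fold of at least 2 was reached by 3316 regions (36.9%) in pgEpiSC 1, where 36.5% of all regions under 20 kb with an island reached it, and by 2694 (30%) in pgEpiSC 4, where 28.1% of all such regions did. These shares lay close to those of all regions of the same library. In both libraries 1751 regions (19.5%) reached a fold of 2, and 8614 (95.8%) had an FDR below 0.01 in both. The shares of all regions that did so in both libraries were not counted. An FDR below 0.01 was common in like classes too. In pgEpiSC 1 and 4 it was held by 98.0% and 97.1% of these regions, and by 96.5% and 97.2% of epiblast-only regions inside genes. At gene ends it was 95.6% and 95.5%. With islands of at least 2-fold only, the rule gave 1856 epiblast-only and 9193 fibroblast-only intergenic regions, so the near-equal numbers of both kinds depend on weak islands being kept.

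The enrichment was lower than that of the fibroblast-only intergenic regions in their own libraries, where the median fold was 3.25 in pEF 1 and 3.24 in pEF 2, and 86.8% and 86.7% reached a fold of 2. The pgEpiSC libraries were lower in fold than the pEF libraries at shared regions too. At gene ends with an island in all 4 libraries the median fold was 2.65 and 2.42 in pgEpiSC 1 and 4, against 7.64 and 6.92 in pEF 1 and 2. Between genes, regions with an island in all 4 libraries had 1.86 and 1.76 in pgEpiSC 1 and 4, against 3.98 and 3.87 in pEF 1 and 2. Levels of fold are therefore set side by side below only within the pgEpiSC libraries. There, the epiblast-only intergenic regions had a slightly higher median than the epiblast-only regions inside genes (1.70 and 1.65) and at gene ends (1.71 and 1.64).

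**Figure D1:**
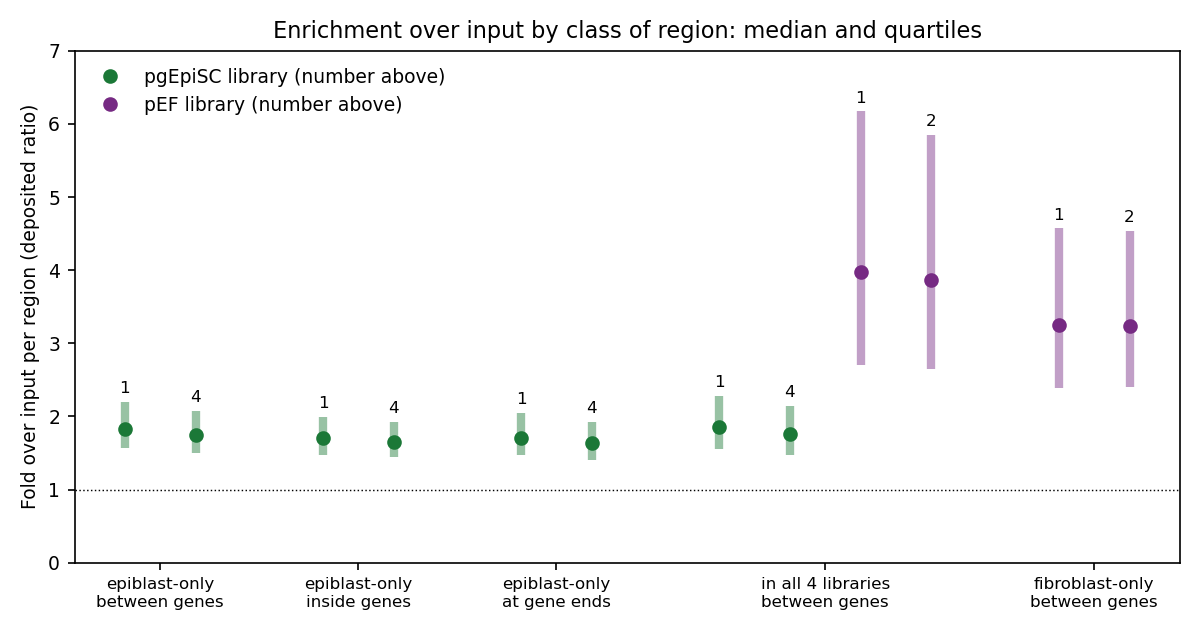
Fold over input (vertical axis, the authors' ratio per region) in each library with islands in a class of merged region. The epiblast-only classes are those between genes, inside genes and at gene ends. The other classes are regions between genes in all 4 libraries and fibroblast-only regions between genes. Points are medians, bars run from the lower to the upper quartile, and the number above a bar is the library number. The epiblast-only intergenic regions sit at medians of 1.83 and 1.75, near the other classes drawn for the pgEpiSC libraries. The fibroblast-only intergenic regions sit at 3.25 and 3.24 in the pEF libraries.

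Across the 8992 regions the pgEpiSC libraries ranked the regions alike in part. Pearson's r between pgEpiSC 1 and 4 was 0.681 for log2 ChIP reads per kb and 0.611 for log2 fold. The input reads per kb of the same regions, which hold no antibody signal, had an r of 0.697 between the libraries, and what part of the ChIP reads this sets was not tested. The fold varied with place and width. Regions of 10 to 20 kb had a median fold of 2.02 and 1.95 in pgEpiSC 1 and 4, against 1.82 and 1.72 for regions of 1 to 5 kb. Regions over 500 kb from the nearest gene had 2.04 and 1.96, against 1.71 and 1.66 for those within 10 kb of a gene. The share with a fold of at least 2 in both libraries was 33.5% over 500 kb from a gene, 22.6% at 100 to 500 kb, 15.3% at 10 to 100 kb and 13.3% within 10 kb. Median input per kb was lower far from genes too, at 30.2 reads in pgEpiSC 1 over 500 kb away, against 35.9 within 10 kb, and its part in the higher fold was not tested.

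Regions just inside and just outside the limits of the rule had like values. The 92 regions of 18 to under 20 kb had median folds of 2.21 and 2.27 in pgEpiSC 1 and 4, and the 53 otherwise equal regions of 20 to 22 kb, which were left out, had 2.42 and 2.31. The 178 regions at 2 to 3 kb from a gene had 1.72 and 1.64, and the 140 at 1 to under 2 kb, which were left out, had 1.75 and 1.65. Absence from the fibroblast lists did not mean distance from fibroblast islands, since 2707 regions (30.1%) had a pEF island within 10 kb, and the median distance to one was 23.6 kb.

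The regions with the highest folds were ranked by the lower of both pgEpiSC folds among regions at least 1 kb wide, a ranking chosen after the values were seen, and the first 10 are given in that order. The first, at chr12:17001-20000 near the start of the chromosome, was 53.1 kb from a gene with no symbol and had folds of 11.0 and 8.26 in pgEpiSC 1 and 4. The next, at chr13:168089801-168091800 and 102 kb from HTR1F, which encodes a serotonin receptor, had folds of 5.90 and 9.17. A region at chr17:63123201-63128600, 50.1 kb from PCMTD2, held 1552 and 1420 ChIP reads with folds of 7.99 and 5.66. These first regions were narrow, at 2.00 to 5.40 kb.

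A region of 3.80 kb at chr1:144903001-144906800, 23.6 kb from TJP1, the gene of a tight junction scaffold, had folds of 4.92 and 4.43. That 214 kb from AJAP1, the gene of an adherens junction protein, had folds of 5.30 and 4.40, and that 85.3 kb from C17H8orf4 had 4.83 and 4.37. The region 114 kb from VRK1, the gene of a nuclear kinase, had 4.34 and 4.17. Wider regions stood among the last of the 10.

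A region of 18 kb at chr2:104684401-104702400, 340 kb from RGMB, the gene of a BMP co-receptor, held 2786 and 3156 ChIP reads with folds of 4.58 and 4.10. The region 1170 kb from ACVR2A, which encodes an activin receptor, had folds of 4.04 and 4.92. A region of 12.8 kb at chr11:52114001-52126800 lay 26.9 kb from SPRY2, an inhibitor of FGF signalling, and held 2037 and 2406 ChIP reads with folds of 5.13 and 4.0.

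A ranking by ChIP reads per kb, scaled to all reads in islands, was led by other regions. Of its 10 highest regions, 8 were under 1 kb wide and 5 had a fold below 1 in both libraries. The highest, 0.400 kb at chr9:88490201-88490600 with FERD3L as nearest gene, held 321 ChIP reads and 2872 input reads in pgEpiSC 1 and 291 and 2491 in pgEpiSC 4. Regions nearest to PDCD6IP, KCNH8, MROH9 and CPNE4 were of the same kind, with folds of 0.0876 to 0.347. Over the whole set, 40 regions had a fold below 1 in both libraries, and 18 of these were under 1 kb wide. The PCMTD2 region was the only one of the 10 that had a named nearest gene, a width over 1 kb and a fold above 2 in both libraries.

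The regions lay far from genes. The median distance to the nearest protein-coding gene was 78.4 kb, with quartiles of 23.3 and 237 kb and a maximum of 2.23 Mb. It was 76.3 kb for the fibroblast-only regions and 38.2 kb for regions with an island in all 4 libraries. More than 500 kb from any gene lay 10.9% of the epiblast-only regions, against 7.41% of the fibroblast-only regions and 3.04% of the regions in all 4 libraries. Intervals between genes that were over 1 Mb long held 29.3% of the epiblast-only regions (95% Wilson interval 28.3% to 30.2%, for counting error only), and those intervals made up 30.4% of the sequence between genes. The same intervals held 21.7% of the fibroblast-only regions and 12.4% of those in all 4 libraries.

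Per Mb of sequence between genes, there were 7.96 epiblast-only, 7.27 fibroblast-only and 2.94 shared regions. In intervals over 1 Mb these values were 7.66, 5.20 and 1.20, and in intervals of 100 to 200 kb they were 9.37, 8.58 and 5.05. In the longest intervals the epiblast-only density was thus close to its value over all intervals, while that of both other classes was lower than theirs. Among chromosomes the density ran from 6.84 per Mb on chromosome 2 to 10.1 on chromosome 3. The ratio of epiblast-only to fibroblast-only regions ran from 0.797 on chromosome 4 to 1.78 on chromosome 6.

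**Figure D2:**
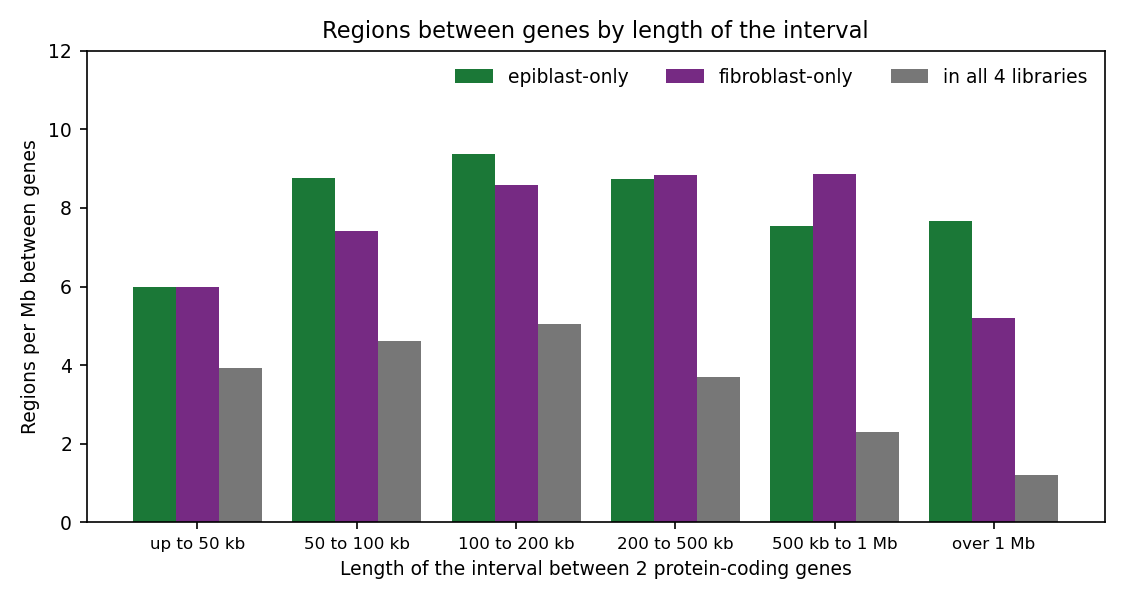
Regions per Mb of sequence between genes (vertical axis) by the length of the interval between neighbouring protein-coding genes (horizontal axis), for epiblast-only regions, fibroblast-only regions and regions with an island in all 4 libraries. In intervals over 1 Mb the epiblast-only bar stands at 7.66 per Mb, against 5.20 and 1.20 for the other classes.

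The regions were gathered in part of the intervals. Of 16355 intervals, 2827 held at least 1 region, and 201 with 10 or more held 34.4% of all regions. Within 12 kb and 500 bp of another such region lay 3256 regions (36.2%), against 41.4% of the fibroblast-only regions and 23.8% of the regions in all 4 libraries. They formed 1355 clusters, of which the largest had 12 regions over 146 kb, between RBM19 and LHX5 on chromosome 14. LHX5 encodes a LIM homeodomain factor of the developing forebrain. The median folds of that cluster were 1.57 and 1.60 in pgEpiSC 1 and 4.

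The interval with most regions was that between NUDT12 and EFNA5 on chromosome 2, with 42 epiblast-only regions in 3.47 Mb, 6 fibroblast-only regions and 4 regions in all 4 libraries. EFNA5 encodes an ephrin ligand that guides migrating cells and axons. The median fold of its 42 regions was 1.99 and 1.94, and 20 and 19 of them reached a fold of 2. The interval between TENM4, a transmembrane teneurin, and FAM181B held 39 epiblast-only, 10 fibroblast-only and 7 shared regions. The interval that starts at ADGRL2, an adhesion G protein-coupled receptor, held 39, 7 and 0.

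That between SUCLG1 and CTNNA2, the gene of a neuronal alpha-catenin, held 37 epiblast-only, 13 fibroblast-only and 0 shared regions. It had the highest median folds of the intervals named here, 2.11 and 2.09 in pgEpiSC 1 and 4. The interval between CELF4, an RNA-binding protein, and PIK3C3, a lipid kinase of endosomes and autophagy, held 36, 2 and 0. That between ALCAM, an immunoglobulin adhesion molecule, and ZPLD1 held 34, 9 and 3. The interval between GOT2, a mitochondrial aminotransferase, and CDH8, a cadherin, held 35 epiblast-only regions, 0 fibroblast-only and 0 shared regions in 2.49 Mb. All 7 intervals named here held more epiblast-only than fibroblast-only regions, and they had been picked for their number of epiblast-only regions.

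The nearest protein-coding gene was then taken for each region. This is a distance and not evidence that the region acts on that gene. The regions had 3424 nearest genes, 18.3% of the 18722 protein-coding genes, and 489 genes (2.61%) were nearest to 5 or more. Of the 3424 genes, 1437 were also nearest to a fibroblast-only region. Listed genes are given below by role, with the number of epiblast-only and of fibroblast-only regions nearest to them. Their roles are known mostly from mouse and human. These numbers rest largely on weak islands: with islands of at least 2-fold only, SOX2 had 1 epiblast-only region in place of 19, SALL1 had 3 in place of 16, POU3F1 had 2 in place of 10 and SPRY2 had 2 in place of 16. They also rest on both pgEpiSC libraries being asked for: without pgEpiSC 1 or pgEpiSC 4, SOX2 had 34 and 34, SALL1 had 34 and 25, and POU3F1 had 23 and 14.

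Core pluripotency factors had more epiblast-only than fibroblast-only regions beside them. Of 14 measured genes of the list 6 (42.9%) were nearest to at least 1 epiblast-only region, where 18.3% of all protein-coding genes were. The list's genes together had 37 epiblast-only regions against 12 fibroblast-only regions. Per Mb of the sequence nearest to these genes this was 14.1 against 4.56, where all protein-coding genes had 7.95 against 7.26. The median length of such sequence was 30.8 kb for a gene of the list, against 11.8 kb for all genes. SOX2, a transcription factor that maintains pluripotency, had 19 epiblast-only regions against 1 fibroblast-only region, at 15.5 to 522 kb, and 7 with islands at an FDR below 1e-10. These 19 regions covered 122 kb in pgEpiSC 1 and 104 kb in pgEpiSC 4, with median folds of 1.79 and 1.67, and the fold of any one region lay between 1.22 and 2.64. SALL4, a zinc finger factor of early embryos, had 5 epiblast-only regions against 0, with median folds of 1.62 and 1.42. The SALL4 number was 0 with islands within 1000 bp merged or with 2-fold islands only, 1 with an FDR below 1e-10, 3 with an FDR below 0.01 or with genes of every type barring a region, and 8 without pgEpiSC 1. DPPA4, a chromatin protein of pluripotent cells, had 5 against 3, with higher folds of 2.33 and 2.73. ZFP42, also known as REX1, had 6 epiblast-only regions against 8 fibroblast-only regions, so that a pluripotency gene was not always beside more epiblast-only regions.

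Formative and primed epiblast genes had the largest number of regions of the 13 lists. Of 18 measured genes 10 (55.6%) were nearest to at least 1, against 18.3% of all protein-coding genes. The list had 74 epiblast-only against 28 fibroblast-only regions, or 15.1 against 5.71 per Mb. SALL1, a zinc finger factor of the same family as SALL4, had 16 epiblast-only regions against 0, at 10.3 to 503 kb, with median folds of 1.87 and 1.79. POU3F1, a POU factor of the formative epiblast also named OCT6, had 10 against 0. The strongest of those 10, at chr6:94039601-94047400 and 11.5 kb from the gene, held 674 and 1161 ChIP reads and had folds of 3.01 and 3.11. OTX2, which directs the shift to formative pluripotency and later head development, had 4 against 0.

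SOX11 and CDH2 had both kinds beside them. SOX11, a SOX factor of neural and embryonic progenitors, had 16 epiblast-only against 9 fibroblast-only regions, and its strongest, 192 kb away at chr3:129599401-129605800, had folds of 4.55 and 2.97. CDH2, the gene of N-cadherin, had 14 against 10. SOX4, another SOX factor, had 7 against 0.

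Naive pluripotency genes had 34 epiblast-only against 28 fibroblast-only regions, or 11.4 against 9.41 per Mb, and 17 of the 28 belonged to 1 gene. KLF4, a reprogramming factor that fibroblasts also express, had 4 epiblast-only against 17 fibroblast-only regions. KLF5, another Krüppel-like factor, had 8 against 0, with low folds that lay between 0.890 and 1.84. TFAP2C, an AP-2 factor of naive cells and germ cells, had 8 against 0, ESRRB, an orphan nuclear receptor, had 4 against 0, and TFCP2L1, a factor of the naive network, had 3 against 0. The list of primordial germ cell genes shares TFAP2C and TFCP2L1 with it and had 22 against 4. This was the highest epiblast-only density of the lists, at 22.1 per Mb against 4.02, on only 0.995 Mb of sequence. KIT, the receptor of stem cell factor, gave 8 of the 22 against 1 fibroblast-only region, and TFAP2C gave another 8. With islands of at least 2-fold only, KIT had 2 epiblast-only regions, TFCP2L1 had 1, and TFAP2C and DAZL had 0.

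**Figure D3:**
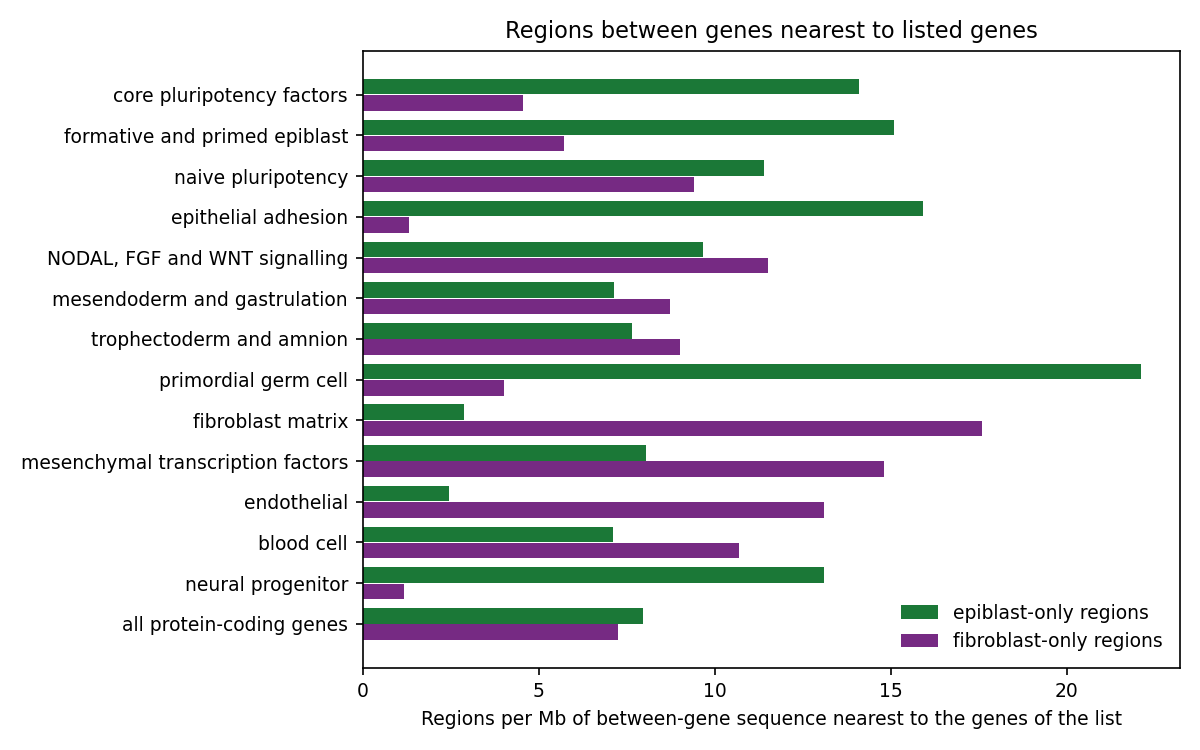
Regions per Mb of between-gene sequence nearest to the genes of each list (horizontal axis), for epiblast-only and fibroblast-only regions, with all protein-coding genes in the lowest row. The epiblast-only bar is the longer one for the core pluripotency (14.1 against 4.56), formative (15.1 against 5.71) and naive lists (11.4 against 9.41). It is also longer for the epithelial (15.9 against 1.33), germ cell (22.1 against 4.02) and neural progenitor lists (13.1 against 1.19). For all protein-coding genes it is slightly longer (7.95 against 7.26). The fibroblast-only bar is longer for the other lists, such as fibroblast matrix (2.87 against 17.6).

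Epithelial adhesion genes had few regions, yet nearly all of them were epiblast-only. Of 27 measured genes 7 (25.9%) were nearest to an epiblast-only region, where 18.3% of all protein-coding genes were. The list had 12 epiblast-only against 1 fibroblast-only region, or 15.9 against 1.33 per Mb, on only 0.753 Mb of sequence. EPCAM, an adhesion molecule of epithelia and pluripotent cells, had 2 against 0. The wider of them, 16.4 kb at chr3:93207801-93224200, held 1884 and 2068 ChIP reads with folds of 3.69 and 3.01. GRHL2, a master factor of epithelial junction genes, had 3 against 0, and ESRP1, a splicing factor of epithelia, had 2 against 0. With islands of at least 2-fold only, EPCAM had 1 epiblast-only region, and GRHL2 and ESRP1 had 0.

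Genes of NODAL, FGF and WNT signalling had both kinds in like number. Of 29 measured genes 13 (44.8%) were nearest to an epiblast-only region, against 18.3% of all protein-coding genes. The list had 42 epiblast-only against 50 fibroblast-only regions, or 9.68 against 11.5 per Mb. Among receptors, FGFR1 had 3 against 0 and FGFR2 had 3 against 2, while the WNT receptors FZD5 and FZD10 had 2 against 0 each. Among feedback inhibitors of FGF signalling, SPRY2 had 16 against 18, DUSP6, an ERK phosphatase, had 4 against 10, and SPRY4 had 5 against 1. One FGFR2 region at chr14:131151201-131157600 differed between libraries, with 860 ChIP reads and a fold of 4.43 in pgEpiSC 1 and 253 reads and a fold of 1.55 in pgEpiSC 4.

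Genes of later lineages were mixed. Mesendoderm genes had 9 epiblast-only against 11 fibroblast-only regions, and GSC, a homeobox factor of the organizer, had 2 against 0. Trophectoderm and amnion genes had 28 against 33. Within that list ISL1, a LIM homeodomain factor, had 6 against 0, with median folds of 1.98 and 2.12, and TFAP2A, an AP-2 factor of surface ectoderm and amnion, had 8 against 7. ID2, an inhibitor of basic helix-loop-helix factors, had 7 against 14, and GATA3, a trophectoderm factor, had 4 against 7. Neural progenitor genes had 11 against 1, or 13.1 against 1.19 per Mb, and of these SOX1, an early neural factor, had 7 against 0.

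Fibroblast genes had mostly fibroblast-only regions. Matrix genes had 7 epiblast-only against 43 fibroblast-only regions, or 2.87 against 17.6 per Mb, and DCN, the gene of decorin, gave 5 of the 7. Mesenchymal transcription factors had 51 against 94, or 8.06 against 14.8 per Mb, so that the epiblast-only density was close to that of all genes. Single genes of that list went against it. MSX2, a homeobox factor of limb and skull mesenchyme, had 9 epiblast-only against 4 fibroblast-only regions, NFIA, a nuclear factor I protein, had 8 against 4, and SNAI2, a repressor of epithelial genes, had 4 against 1. Endothelial genes had 3 against 16 and blood cell genes 2 against 3.

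**Figure D4:**
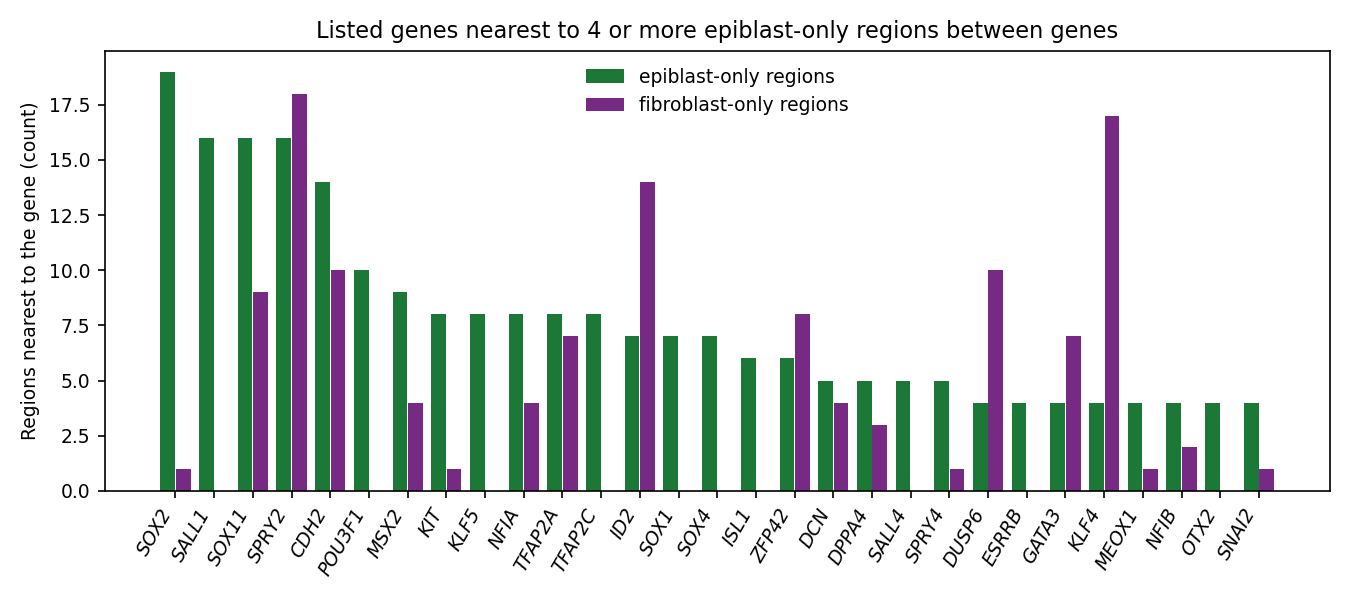
Number of epiblast-only and fibroblast-only intergenic regions (vertical axis) nearest to each listed gene with at least 4 epiblast-only regions (horizontal axis, in order of that number). SOX2 (19 against 1), SALL1 (16 against 0) and POU3F1 (10 against 0) stand beside SOX11 (16 against 9), SPRY2 (16 against 18) and KLF4 (4 against 17).

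The ends of the nearest genes were not used by the rule, although their islands come from the same 4 libraries. An end with islands in both pgEpiSC libraries and neither pEF library was found in 413 of the 3424 genes nearest to an epiblast-only region, or 12.1%, against 6.49% of the 15298 genes nearest to none and 7.51% of all protein-coding genes. The share was 9.94% for genes nearest to 1 region and 18.6% for those nearest to 5 or more, and with 2 to 4 regions it was 147 of 1174 genes. For ends with islands in both pEF libraries and neither pgEpiSC library, the shares were 4.03% of the genes nearest to a region and 4.30% of all genes. Among the 3104 genes nearest to a fibroblast-only region, 8.80% had such a pEF-only end and 4.90% an epiblast-only end. With islands of at least 2-fold only, 4.39% of the genes nearest to an epiblast-only region had an epiblast-only end, against 2.07% of all genes. SALL4, DPPA4, OTX2, POU3F1, TFAP2C, KIT, GRHL2 and ESRP1 were among the genes with an epiblast-only end. Most neighbours (58.8%) had an end island in all 4 libraries, as 61.4% of all genes did. SOX1, TFAP2A and CDH8 had an end island in 0 libraries despite 7, 8 and 26 regions.

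**Figure D5:**
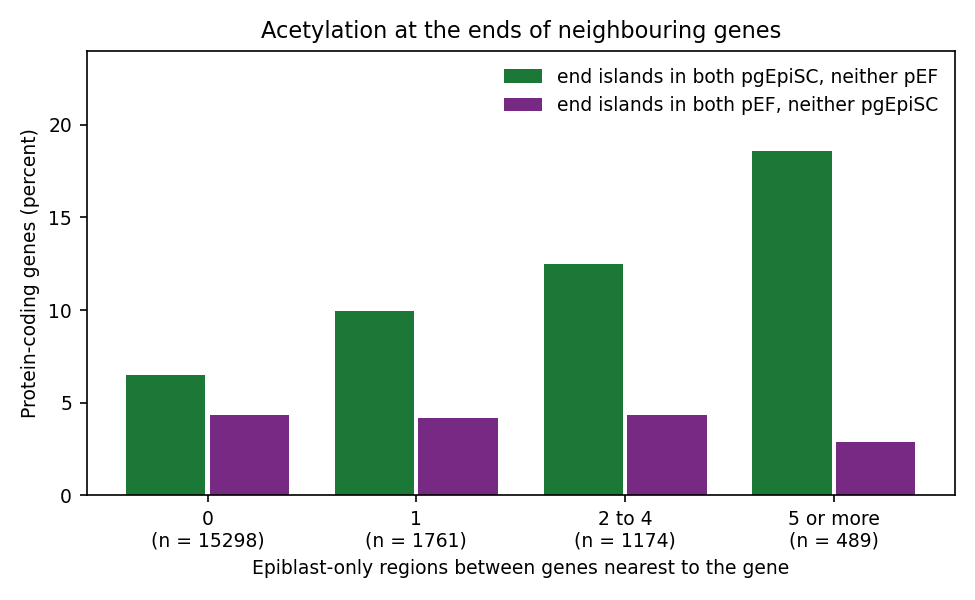
Percent of genes (vertical axis) whose ends had islands in both pgEpiSC libraries and neither pEF library, or the reverse, by the number of epiblast-only intergenic regions nearest to the gene (horizontal axis). The pgEpiSC share is 6.49% for genes with 0 regions and 18.6% for genes with 5 or more.

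At gene ends with islands in all 4 libraries, ChIP reads inside islands were compared between pgEpiSC and pEF by edgeR's quasi-likelihood test with Benjamini-Hochberg adjustment over all 10389 such regions. Over all of them 25.6% were higher and 26.4% lower in pgEpiSC at an adjusted p under 0.05. Of the 2369 gene-end regions whose gene was nearest to an epiblast-only intergenic region, 708 (29.9%) were higher and 585 (24.7%) lower. For genes nearest to 5 or more, 28.8% were higher and 27.4% lower. The median log2 fold change was 0.09 for the neighbours and -0.03 for all. Both shares lay near those of all gene ends, so a nearby epiblast-only region went with only a small shift in the acetylation of the gene's own shared end. Without pgEpiSC 1 or pgEpiSC 4 the median log2 fold change was 0.08 and 0.12 for the neighbours, against -0.02 and -0.02 for all. With all 4 libraries, 2284 gene-end regions had a gene nearest to a fibroblast-only region. Of these, 19% were higher and 38% lower in pgEpiSC, with a median log2 fold change of -0.34.

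At ends with islands in all 4 libraries, 4 of 5 tested core pluripotency genes were higher in pgEpiSC and 0 lower. Of formative genes 6 of 13 were higher and 2 lower, and of 5 naive genes 1 (KLF5) was higher and 2 (KLF2 and SOCS3) lower. These counts cover whole lists, including genes with no epiblast-only region nearest to them. Among tested genes nearest to such a region, 1 of 2 core, 2 of 6 formative and 1 of 2 naive genes were higher, and 0, 1 and 0 were lower. The values below are CPM, each library's ChIP reads in the region scaled to its TMM-adjusted total over all such regions. Only reads inside a library's own islands are counted, so a difference in CPM can go with one in covered length. The part of covered length in the log2 fold changes was not tested. For SOX2, the end region held 937 and 915 CPM in pgEpiSC 1 and 4, against 11.6 and 9.67 in pEF 1 and 2. The groups were far apart, with a log2 fold change of 6.44 ± 0.22 (SE) and an adjusted p of 0.000357 in edgeR. The islands covered 67.8 and 65.8 kb in the pgEpiSC libraries, against 3 and 2.8 kb in the pEF libraries, so the difference in reads goes with one in covered length. For SALL1 the CPM were 198 and 190 in pgEpiSC, against 11.9 and 15.6 in pEF, with a log2 fold change of 3.82 ± 0.22 (SE) and an adjusted p of 0.000449. GSC had 401 and 361 against 20.9 and 13.2, with a log2 fold change of 4.48 ± 0.29 (SE). At SALL1 the islands covered 14.2 and 16 kb in pgEpiSC 1 and 4, against 3.6 and 3.4 kb in pEF 1 and 2. At GSC they covered 39 and 35.8 kb against 4.2 and 3.8 kb.

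Of the tested epithelial genes of the whole list 11 of 12 were higher in pgEpiSC and 1 lower. Only 1 of the 12, EPCAM, was nearest to an epiblast-only region. EPCAM had 94.6 and 70 CPM in pgEpiSC 1 and 4, against 26.9 and 50.3 in pEF 1 and 2, and a log2 fold change of 1.09 ± 0.35 (SE) with an adjusted p of 0.0446 in edgeR. The pEF libraries differed at EPCAM, and the call was lost without pEF 1 (log2 fold change 0.71, adjusted p 0.0638), without pgEpiSC 1 (0.89, 0.176) and without pgEpiSC 4 (1.30, 0.0793). With 1 library left in an arm, the spread comes from the other arm alone, and the lone library is assumed to vary like it. For KLF5 the CPM were 275 and 229 against 54.7 and 131, with a log2 fold change of 1.44 ± 0.42 (SE) and an adjusted p of 0.0335. Without pgEpiSC 1 or 4 the log2 fold change was 1.33 and 1.58, close to the full fit, with adjusted p of 0.122 and 0.0841. ZIC2, a zinc finger factor of the primed epiblast, had 655 and 671 CPM against 15.4 and 106. The log2 fold change was 3.45 ± 0.87 (SE), with an adjusted p of 0.021 in edgeR. Its islands covered 44.4 and 42 kb in pgEpiSC 1 and 4, against 5.2 and 19.6 kb in pEF 1 and 2. Without pgEpiSC 1 or 4 its log2 fold change was 3.50 and 3.44, with adjusted p of 0.0624 and 0.0654.

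The signalling genes were split at their ends, with 7 of 17 tested higher in pgEpiSC and 5 lower. Of the 8 tested ones nearest to an epiblast-only region, 4 were higher and 2 lower. FGFR2 had 1000 and 903 CPM in pgEpiSC 1 and 4, against 204 and 209 in pEF 1 and 2, with a log2 fold change of 2.21 ± 0.17 (SE) and an adjusted p of 0.000664 in edgeR. FGFR1, whose region also holds an end of LETM2, and FZD5, whose region also holds an end of CCNYL1, had log2 fold changes of 3.22 ± 0.34 and 2.83 ± 0.21 (SE). The islands at FGFR2 covered 97.4 and 95.8 kb in pgEpiSC 1 and 4, against 23.6 and 26 kb in pEF 1 and 2. At FGFR1 they covered 49.6 and 45.4 kb against 11.2 and 6.6 kb, and at FZD5 29 and 29.6 kb against 9.2 and 4.4 kb. DUSP6 went the other way, with 238 and 307 CPM against 646 and 699 and a log2 fold change of -1.30 ± 0.20 (SE). SPRY2, with 16 epiblast-only regions, had 474 and 406 against 406 and 520 at its end, and a log2 fold change of -0.07 ± 0.20 (SE) that did not pass.

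A gene with many epiblast-only regions could have an end that was lower in pgEpiSC. MSX2 had 41.4 and 19.7 CPM in pgEpiSC 1 and 4, against 99.2 and 139 in pEF 1 and 2, with a log2 fold change of -1.97 ± 0.40 (SE) and an adjusted p of 0.0102 in edgeR. ID2 had a log2 fold change of -2.37 ± 0.27 (SE), and SOX4 had -0.58 ± 0.17 (SE). PRRX1, a limb mesenchyme factor with only 2 regions, had -3.17 ± 0.46 (SE). The SOX4 adjusted p was 0.0367, and without pgEpiSC 1 or 4 it was 0.173 and 0.205 at log2 fold changes of -0.59 and -0.54. NFIA was the exception among the tested mesenchymal factors, with a log2 fold change of 2.39 ± 0.59 (SE) and an adjusted p of 0.0199 in edgeR. Its islands covered 81.6 and 79 kb in pgEpiSC 1 and 4, against 10.6 and 21.8 kb in pEF 1 and 2. Of all tested factors of that list 1 of 10 was higher and 6 lower. Of the 6 nearest to an epiblast-only region, 1 was higher and 4 lower. Without pgEpiSC 1 or 4 the NFIA log2 fold change was 2.32 and 2.5, with adjusted p of 0.0717 and 0.0611. SOX11, CDH2, KLF4 and ZFP42 had log2 fold changes of 0.45 ± 0.18, -0.56 ± 0.33, -0.41 ± 0.16 and -0.05 ± 0.27 (SE), none of which passed, although without pEF 1 SOX11 had 0.54 with an adjusted p of 0.0455.

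Of the genes flanking the fullest intervals, CELF4 had 99.2 and 123 CPM at its end in pgEpiSC 1 and 4, against 11.3 and 11.1 in pEF 1 and 2. The log2 fold change was 3.31 ± 0.21 (SE), with an adjusted p of 0.000523 in edgeR. The CELF4 islands covered 13.6 and 17 kb in pgEpiSC 1 and 4, against 1.4 and 1.2 kb in pEF 1 and 2. This difference in reads therefore goes with one in covered length. GOT2 had 54.6 and 47.1 CPM against 151 and 117, a log2 fold change of -1.40 ± 0.21 (SE). NUDT12, SUCLG1, ALCAM and PIK3C3 did not pass, with log2 fold changes between 0.10 and 0.61. EFNA5, ADGRL2, TENM4, FAM181B and ZPLD1 had an epiblast-only end.

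Part of the regions overlapped genes that make no protein, which the rule did not use. A long non-coding RNA gene was overlapped by 1759 regions (19.6%), against 21.4% of the fibroblast-only regions and 27.5% of those in all 4 libraries. They fell on 997 such genes, with at most 16 regions on 1 gene. MicroRNA genes were overlapped by 4 regions. The region over MIR124A-2, a member of a neuronal microRNA family, had folds of 1.40 in pgEpiSC 1 and 2.63 in pgEpiSC 4, and that over MIR7-1 had 1.59 and 1.48. Those over MIR9817 and MIR9861 had 1.57 and 1.38, and 2.29 and 1.89.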

How the data were processed

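H3K27ac ChIP-seq of pgEpiSC and pEF was analysed from 4 island lists, 1 for each ChIP library. Per the labels' protocols, chromatin was sonicated and sequenced as paired-end reads. BWA 0.7.15, SAMtools 0.1.19 and SICER 1.1 are named in the submitters' processing notes. The deposited count columns hold whole ChIP and input reads per island, the deposited p-value and FDR columns are those of each island against input, and the deposited fold column is the authors' ratio of ChIP to scaled input reads. The lists have no header, and this reading rests on the values. Genome build and read filters are not given in the sources used here. Gene bodies came from a RefSeq table of Sscrofa11.1, which was set against the islands: on 18 of 18 chromosomes more gene ends fell in islands than points shifted by 20 kb (median 56.1% against 36.5%). The table has no strand, so both gene ends stand for the promoter. A motif comparison was planned and not run, because genome sequence was not used here.

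Islands overlapping by 1 bp were merged, and a region's distance was taken to the nearest protein-coding gene body. Sequence between genes was counted for a gene up to the middle of each flanking interval. ChIP reads of gene-end regions with islands in all 4 libraries were tested in edgeR 4.0.16 (quasi-likelihood, TMM factors 1.03, 1.03, 0.992 and 0.945 for pgEpiSC 1, pgEpiSC 4, pEF 1 and pEF 2, common dispersion 0.0479), with Benjamini-Hochberg adjustment and a threshold of 0.05. The SE of a log2 fold change was derived and not estimated by the fit. It is the size of the log2 fold change over the square root of the quasi-likelihood F statistic. Where a gene had several such regions, the one with most reads was used, and only genes whose own ends had islands in all 4 libraries were counted. The counts are of reads inside each library's islands, which differ in width, and the 95% Wilson intervals cover counting error only. The overlap functions and the edgeR fit were tested on simulated data. Tables were handled with pandas 2.3.3 and numpy 2.4.6 in Python 3.11.15, intervals with scipy 1.17.1 and figures with matplotlib 3.10.9, and R 4.3.3 ran edgeR and, as an alternative, DESeq2 1.42.0.

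The regions and the 13 gene lists (202 of 213 listed genes matched) were chosen with earlier results of these data known. Named genes were the genes nearest to the 10 regions with most ChIP reads per kb, the genes flanking the 8 intervals with most regions, of which 1 interval is not reported here, every listed gene nearest to at least 2 regions, and microRNA genes that a region overlaps. A further ranking by fold was added after the values were seen, and the genes it names are marked so in the text. Listed genes named outside this rule, in counts of list members or as markers, come from the 13 lists.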

Additional observations from a re-analysis of the deposited data

How the results depend on the processing

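The number of epiblast-only intergenic regions depended most on the strength asked of an island. It was 5674 with islands at an FDR below 1e-10, against 8192 fibroblast-only regions, and 1856 with islands of at least 2-fold, against 9193. The cause was not tested. With 1 library left out it ran from 9571 to 15771, the upper values being 15771 without pgEpiSC 1 and 13734 without pgEpiSC 4, where 1 pgEpiSC island suffices by construction. Under the other 7 alternatives it lay between 7006 and 9190; 1 of these, regions with a fold of at least 1 in both pgEpiSC libraries, was chosen after seeing the data and gave 8912. With 2-fold islands, intervals over 1 Mb held 40.8% of the regions, 7.22% lay within 12 kb and 500 bp of another, and 4.39% of the nearest genes had an epiblast-only end, against 2.07% of all genes; with 1 library left out these shares ran from 27.5% to 28.6%, from 37.1% to 51.4% and from 13.1% to 13.5%, the last against 8.51% to 9.42% of all genes. Of 100 counts for single genes or intervals, 94 moved by over 1.5 times with 2-fold islands, 44 at an FDR below 1e-10, 50 without pgEpiSC 1 and 32 without pgEpiSC 4. The median fold was 1.78 from summed reads, 1.81 with islands at an FDR below 0.01, and 1.75 and 1.83 in the single pgEpiSC libraries. Gene-end regions of neighbours that were higher in pgEpiSC numbered 482 to 769 with 1 library left out, and lower ones 336 to 606; RLE scaling gave 728 and 564, and DESeq2 779 and 596. With 1 library left out the sign at the gene end turned, with no call before or after, for ZFP42 (log2 fold changes of -0.37 to 0.37), SPRY2 (-0.24 to 0.11), DCN (-0.39 to 0.04), SUCLG1 (-0.04 to 0.53) and ALCAM (-0.02 to 0.23). No paired analysis was possible because the cell types share only the replicate number 1.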
